A study of Mus musculus with 96 samples.

Results

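The mitotic kinesins are motor proteins that move along microtubules, or shorten them, while a cell divides. The 10 genes Kif11, Kif15, Kif22, Kif4, Cenpe, Kif2c, Kif18a, Kif23, Kif20a and Kif20b were taken by symbol from a count table of 40202 genes, and all 10 were present. Their mRNA was measured in single mouse C10 cells, an established lung line that the labels call alveolar type II epithelial. Of 96 single-cell libraries, 48 were from untreated cells and 48 from cells given 10 nM RO-3306, an inhibitor of the mitotic kinase CDK1, for 36 h before sorting. Both groups grew in the same serum-containing medium, and each cell's RNA was captured after its lysate had been split between RNA and protein workflows on a nanolitre chip. The labels name no separate cultures, so each treatment is 1 sample: cells are not replicates of a treatment, and no p-value is given.

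In a dividing cell Kif11 (Eg5) slides antiparallel microtubules apart so that the spindle becomes bipolar, and Kif15 helps to hold that bipolar spindle. Kif22 and Kif4 sit on chromosome arms, Cenpe carries chromosomes to the metaphase plate, Kif2c removes tubulin from microtubule ends to correct wrong attachments, and Kif18a limits microtubule growth at the plate. Kif23, Kif20a and Kif20b work at the spindle midzone and in the final cut between daughter cells. The mRNAs of this family are known to peak in G2 and mitosis, and many such genes carry a short promoter element, the cell cycle genes homology region (CHR), read by the DREAM and MuvB-FOXM1 complexes. RO-3306 is used at micromolar doses to hold cells at the border of G2 and mitosis; the labelled dose here is far lower, and no block was measured.

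RefSeq promoter windows (GRCm38.p6, 250 bases before to 50 bases after the annotated start) were searched for 9 of the 10 genes, without Kif20a. The core letters of the CHR, TTTGAA (searched on both strands, where the complement reads TTCAAA), lay in 7 of these 9 windows, against 17.9% of all 32851 windows. In 6 of the 9 genes they lay within 50 bases of the start, against 4.94% of all windows, a distance chosen after the matches were seen. The 30 bases around these 6 matches are shown because their place near the start is what the genes share. They read 5′ to 3′ on the gene's strand, with the matched letters in capitals.
Kif11: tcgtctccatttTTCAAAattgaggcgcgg
Kif15: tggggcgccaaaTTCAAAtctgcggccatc
Kif22: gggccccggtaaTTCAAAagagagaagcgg
Kif23: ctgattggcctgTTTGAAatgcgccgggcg
Kif4: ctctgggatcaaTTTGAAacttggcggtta
Kif20b: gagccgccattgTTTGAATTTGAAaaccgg
The stretches lie at chr19:37376351-37376380 on the plus strand (Kif11), chr9:122951050-122951079 on the plus strand (Kif15), chr7:127042420-127042449 on the minus strand (Kif22), chr9:61946780-61946809 on the minus strand (Kif23), chrX:100626072-100626101 on the plus strand (Kif4) and chr19:34922353-34922382 on the plus strand (Kif20b). Counting the start as base 1, the match began at base -19 in Kif11 and Kif15 and at base -17 in Kif22, in the promoter just before the start. It began at base 3 in Kif23, base 8 in Kif20b, with a second copy at base 14, and base 20 in Kif4, inside the transcript. Kif2c had its nearest match at base -103, Cenpe had only the related letters TTTAAA at base 15, and Kif18a had neither. TTTAAA, which reads the same on both strands, was in 13.2% of all windows. The CCAAT box (those letters on either strand) was in 5 of the 9 windows, those of Kif11, Kif22, Kif23, Kif4 and Cenpe, against 37.4% of all windows. A match describes the letters only: no binding was measured here.

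A minimum of 50000 counts and 1000 detected genes per library left 29 control and 37 RO-3306 cells with median totals of 1753430 and 2234310 reads counted. At an equal depth of 639000 reads a kept cell had a median of 4581 genes with a count in control and 5975 with RO-3306. The median log2 ratio over the 9374 genes with a mean level of at least 5 CPM (counts per 1000000 counts of a library or group) was -0.22, and TMM or DESeq2 scaling moved it by 0.20 or 0.23. The mitochondrial share of a cell's counts was not used to filter; its median was 3.40% in control and 4.42% with RO-3306, with 1 RO-3306 cell at 56.0% and no kinesin count. The labelled cell type was largely without its defining markers: Sftpa1, Sftpc, Sftpd, Slc34a2 and Napsa, of 10 alveolar type II markers, had no count in any kept cell, while Lpcat1 (13.5 and 18.7 CPM in control and with RO-3306) and Abca3 (9.38 and 5.21 CPM) passed 5 CPM. Of the other lists, 0 of 6 epithelial markers reached 5 CPM, whereas 8 of 8 mesenchymal markers did. The mesenchymal markers were themselves lower with RO-3306 in 8 of 8 cases (median log2 -1.47), with a summed level per cell of 1329 to 11354 CPM in control and 1297 to 13886 CPM with RO-3306; their part in the kinesin values was not tested. Of 8 macrophage markers, Cd14 (26.4 and 45.3 CPM) and Lyz2 (29.5 and 15.8 CPM) passed 5 CPM, and Marco and C1qa had no count. The others were low: Csf1r (1.70 and 0 CPM), Itgam (0.924 and 0.0108 CPM), Ptprc (0 and 0.129 CPM) and Adgre1 (0.0151 and 0 CPM). The pooled sum of the list, 58.5 and 61.2 CPM, was thus nearly all Cd14 and Lyz2. Per cell the summed level ran from 0 to 314 CPM in control and from 0 to 436 CPM with RO-3306. Across thinned cells this summed level followed the summed kinesins at a Spearman correlation of -0.08 in control and 0.64 with RO-3306, and its part in the kinesin values was not tested.

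Summed over the kept cells, the 10 kinesins made up 489 CPM of the control counts (95% Poisson limits 484 to 494, counting error only) and 189 CPM of the RO-3306 counts (186 to 192), a log2 ratio of -1.37 with 1 CPM added to each side. Per cell the sum ran from 0 through a median of 122 to 1786 CPM in control and from 0 through 71.5 to 1185 CPM with RO-3306. The groups overlapped up to 1185 CPM, and 2 control cells, D8 and B4 (1602 CPM), lay above every RO-3306 cell. Reads carried no molecular identifiers, so counting limits are narrower than the true error.

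The pooled difference did not hold in every lettered set of the titles (A to D, whose meaning the labels do not give; 5 to 11 kept cells of a treatment in each). The sum was 289 CPM in control and 222 CPM with RO-3306 in set A, 758 and 142 CPM in set B, and 629 and 115 CPM in set D. Set C went the other way, from 111 to 257 CPM. Control set B was the highest of the 8 combinations and control set C the lowest. In set D the medians over cells were close, 48.3 CPM in control and 51.9 CPM with RO-3306, and control cell D8 alone held 93.5% of that set's control kinesin counts. The pooled log2 ratio was -0.63 without set B, -1.75 without set A, -1.80 without set C and -1.15 without set D.

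**Figure D1:**
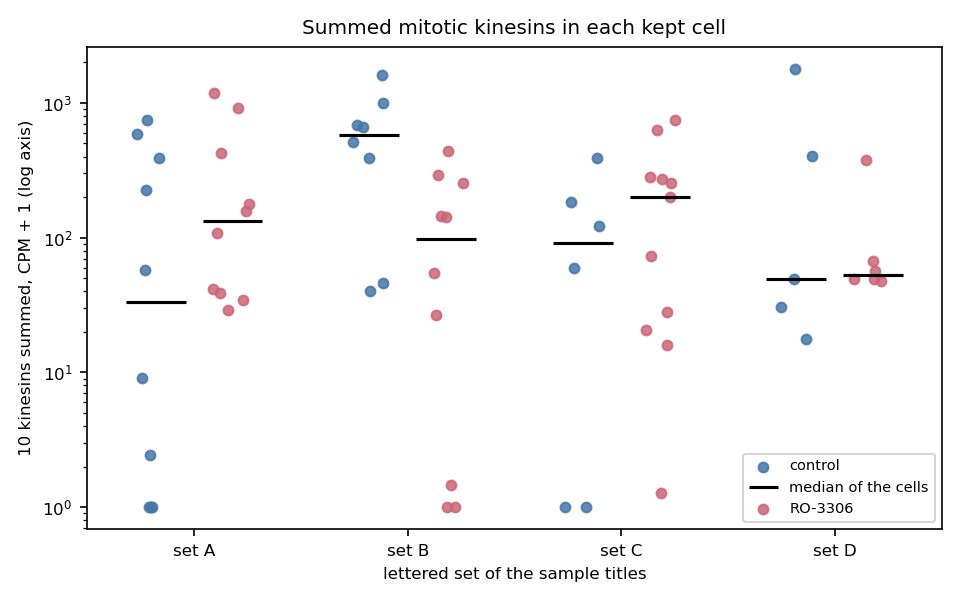
Sum of the 10 mitotic kinesins in each kept cell (CPM + 1, log axis) by lettered set, with control in blue and RO-3306 in red; black bars are medians over cells. Control cells reach 1786 CPM in set D and 1602 CPM in set B, and 5 control and 2 RO-3306 cells had no kinesin count.

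A few cells carried a large share of the counts: the leading 3 held 56.6% in control and 37.5% with RO-3306. Control cell B4, which held 9.78% of the control reads, gave 32% of the control kinesin counts and had 9 of the 10 genes; control cell D8 gave 13.5% and B2 gave 11%. With RO-3306 the leading cells were C9 with 14.8%, C10 with 12.7% and A2 with 9.97%. Without B4 the pooled log2 ratio was -0.96, and without the 2 control cells above 1000 CPM (B4 and D8) it was -0.70; these cells were chosen after their values were seen. Giving each cell equal weight, the sum was 344 CPM in control and 205 CPM with RO-3306 (log2 ratio -0.74).

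At equal depth, where 25 control and 34 RO-3306 cells remained (4 and 3 shallower cells were left out), the median cell had a count for 2 of the 10 kinesins in control and 2.5 with RO-3306. At all reads the medians were 2 and 3, without set A 3 and 2, and without set B 1 and 3. No kinesin was detected in 4 of 25 control cells (16%, exact 95% limits 4.54% to 36.1%) and in 2 of 34 RO-3306 cells (5.88%, 0.72% to 19.7%). At least 4 kinesins were detected in 7 control cells (28%, 12.1% to 49.4%) and 11 RO-3306 cells (32.4%, 17.4% to 50.5%). These limits cover the counting of cells within 1 sample a treatment and give no comparison of treatments. The fullest cells had 9 (control B4) and 8 (RO-3306 A2).

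**Figure D2:**
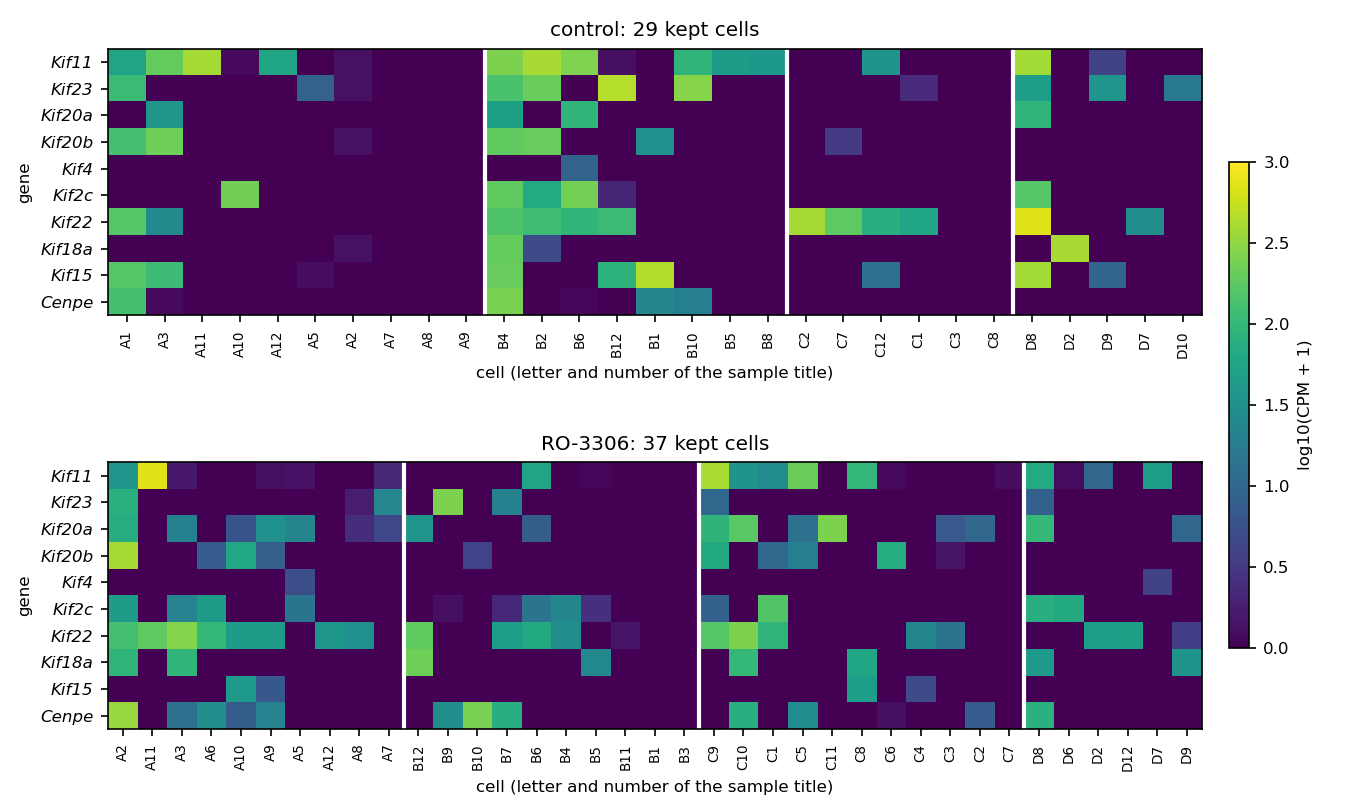
Level of each mitotic kinesin in each kept cell as log10(CPM + 1), control above and RO-3306 below, with cells named by the letter and number of their title and sorted within each set by summed kinesin level. Most squares are at 0, and cells such as control B4 with 9 genes and RO-3306 A2 with 8 stand beside cells with 1 gene at a high level, such as control C2 with Kif22.

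The motors that build the bipolar spindle, Kif11 and Kif15 summed, had 187 CPM in control and 47.1 CPM with RO-3306 (log2 ratio -1.97; -2.16 in set A, -5.98 in set B, 3.25 in set C and -3.41 in set D). At equal depth either gene was detected in 14 of 25 control cells (56.0%, 34.9% to 75.6%) and in 15 of 34 RO-3306 cells (44.1%, 27.2% to 62.1%).

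Kif11 (GRCm39, chromosome 19, 37364830 to 37410311, plus strand) had 116 CPM in control (113 to 118) and 44.3 CPM with RO-3306 (43 to 45.7), a log2 ratio of -1.36. By set it was 83.0 and 24.9 CPM in A, 177 and 3.38 CPM in B, 7.61 and 101 CPM in C, and 127 and 23.5 CPM in D, so sets A, B and D were lower with RO-3306 and set C was higher. Single cells ran from 0 through a median of 0.343 to 400 CPM in control and from 0 through 0.120 to 739 CPM with RO-3306. The highest Kif11 cell of all was thus an RO-3306 cell, A11. The gene had a count in 16 of 29 control and 19 of 37 RO-3306 cells, though in 4 and 9 of these at under 10 CPM. In set B it was detected in 7 of 8 control but 2 of 10 RO-3306 cells, while in set C the numbers were 1 of 6 and 7 of 11. Leaving out set B moved the pooled log2 ratio to -0.40, and leaving out set C to -2.90.

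Kif15 (chromosome 9, 122780146 to 122847798, plus strand) had the lowest ratio of the 10 genes. It had 71.8 CPM in control (69.8 to 73.9) and 2.78 CPM with RO-3306 (2.45 to 3.14), a log2 ratio of -4.27. Control cells ran from 0 through a median of 0 to 453 CPM and RO-3306 cells from 0 through 0 to 45.5 CPM. The ranges overlapped, with most cells of both groups at 0. Kif15 was detected in 9 of 29 control and 4 of 37 RO-3306 cells, and 7 and 2 of them had at least 10 CPM. No RO-3306 count was found in sets B and D, where control had 97.3 and 131 CPM; a count of 0 allows at most 0.132 and 0.136 CPM there, so Kif15 was at least 735-fold and at least 964-fold lower in those libraries. Cell D8 held 97.1% of the set D control counts, and without it control had 5.62 CPM there and the bound was 41.3-fold. In set B the control counts came from 3 of 8 cells. These bounds cover counting error only. Control counts of 0 in set C gave bounds the other way, higher with RO-3306. They were 102.7-fold for Kif20a, 49.2-fold for Kif18a, 36.2-fold for Cenpe and 13.5-fold for Kif2c. Set A was lower with RO-3306 (49.8 and 3.93 CPM) and set C higher (2.74 and 6.18 CPM). Over 16 alternative settings the pooled log2 ratio stayed between -5.29 and -2.68. At equal depth Kif15 was found in 8 of 25 control cells (32%, 14.9% to 53.5%) and 4 of 34 RO-3306 cells (11.8%, 3.30% to 27.5%).

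The chromosome-arm motors Kif22 and Kif4 summed to 79.0 CPM in control and 40.7 CPM with RO-3306, nearly all of it Kif22. Kif22 (Kid), which pushes chromosome arms away from the poles, lies on chromosome 7 at 126626901 to 126641639, minus strand. It had 78.4 CPM in control (76.3 to 80.6) and 40.3 CPM with RO-3306 (39 to 41.6), a log2 ratio of -0.94. Cells ran from 0 through a median of 0 to 714 CPM in control and from 0 through 13.4 to 277 CPM with RO-3306. The median cell was thus higher with RO-3306 while the pooled level was lower, and the highest control cell, D8, held 33.7% of the control counts. By set it was higher with RO-3306 in A (29.7 and 61.9 CPM) and lower in B (72.1 and 33 CPM), C (99.4 and 54.7 CPM) and D (241 and 10.5 CPM). It was the only one of the 10 genes lower with RO-3306 in set C, and without set D its pooled log2 ratio was -0.22. At equal depth Kif22 was detected in 12 of 25 control cells (48%, 27.8% to 68.7%) and 19 of 34 RO-3306 cells (55.9%, 37.9% to 72.8%); Kif11 was also found in 12 of the control cells.

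Kif4 (chromosome X, 99669671 to 99770877, plus strand), a chromokinesin that also shortens the midzone, was nearly absent: 34 counts in each group, or 0.515 CPM in control (0.357 to 0.720) and 0.366 CPM with RO-3306 (0.254 to 0.512). All control counts came from cell B6 and the RO-3306 counts from 2 cells, with no cell at 10 CPM. Other genes, Gm52438 and Pdzd11, overlap 66% of its span, and the counter's default, with no other setting in the file headers, leaves out reads that overlap 2 genes. Its partner Prc1, overlapped over 98.6% of its span, also stood near 0 (0.0909 CPM in control and 0.0108 CPM with RO-3306). Whether either mRNA was low in the cells cannot be told apart from the overlap.

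Cenpe, Kif2c and Kif18a, which act where microtubule plus ends meet kinetochores, summed to 101 CPM in control and 54.0 CPM with RO-3306 (log2 ratio -0.90). Control cell B4 gave 60.7% of the control counts, and without it control had 44.1 CPM and the log2 ratio was 0.29. By set the sum was 32.3 and 62.5 CPM in A, 209 and 66 CPM in B, 67.2 and 58.6 CPM in D, and in C no control count (at most 0.374 CPM for each gene) against 37 CPM with RO-3306. At equal depth any of the 3 was found in 10 of 25 control cells (40%, 21.1% to 61.3%) and in 22 of 34 RO-3306 cells (64.7%, 46.5% to 80.3%). The direction of the pooled level thus rested on B4.

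Cenpe (chromosome 3, 134918324 to 134979301, plus strand) had 33.3 CPM in control (31.9 to 34.7) and 23.3 CPM with RO-3306 (22.4 to 24.3), a log2 ratio of -0.50. Cells ran from 0 through a median of 0 to 251 CPM in control and from 0 through 0 to 345 CPM with RO-3306. Control cell B4 alone held 73.6% of the control counts. Without B4 the log2 ratio was 1.18, and with equal weight per cell, B4 included, it was 0.79. The pooled direction thus rested on B4 and on weighting cells by their depth. RO-3306 was higher in sets A (19.9 and 35.4 CPM), C (0 and 13.5 CPM) and D (0 and 15.8 CPM) and lower in B (66 and 34.5 CPM). At equal depth it was detected in 4 of 25 control cells (16%, 4.54% to 36.1%) and in 12 of 34 RO-3306 cells (35.3%, 19.7% to 53.5%).

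Kif2c (MCAK; chromosome 4, 117016830 to 117039821, minus strand) had 47.1 CPM in control (45.4 to 48.8) and 11.7 CPM with RO-3306 (11 to 12.4), a log2 ratio of -1.92. Cells ran from 0 through 0 to 235 CPM in control and from 0 through 0 to 152 CPM with RO-3306. Few control cells with much of it stood against more RO-3306 cells with little: at equal depth it was detected in 6 of 25 control cells (24%, 9.36% to 45.1%) and in 11 of 34 RO-3306 cells (32.4%, 17.4% to 50.5%), with medians among them of 181 and 17.2 CPM. It was lower with RO-3306 in sets A (12.3 and 10.7 CPM), B (93.2 and 5.41 CPM) and D (53.5 and 28.1 CPM) and higher in C (0 and 5.04 CPM). Without set B the pooled log2 ratio was -0.33.

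Kif18a (chromosome 2, 109111083 to 109172094, plus strand) had 21 CPM in control (19.9 to 22.2) and 19 CPM with RO-3306 (18.1 to 19.9), so that the log2 ratio was -0.14; TMM scaling turned it to 0.06 and DESeq2 scaling to 0.09. The lowest and the median cell were at 0 in both groups, and the highest at 400 CPM in control and 216 CPM with RO-3306. Control cell B4 held 91.6% of the control counts, and without it the log2 ratio was 2.76. It was higher with RO-3306 in sets A (0.0404 and 16.4 CPM), C (0 and 18.43 CPM) and D (13.7 and 14.7 CPM) and lower in B (49.7 and 26.1 CPM). At least 10 CPM was reached in 2 of 29 control cells and in 8 of 37 RO-3306 cells.

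The midzone motors Kif23, Kif20a and Kif20b summed to 121 CPM in control and 46.9 CPM with RO-3306 (log2 ratio -1.35; -0.47 in set A, -2.32 in B, 5.08 in C and -1.45 in D). At equal depth any of the 3 was detected in 14 of 25 control cells (56.0%, 34.9% to 75.6%) and in 21 of 34 RO-3306 cells (61.8%, 43.6% to 77.8%). The 3 genes did not move alike.

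Kif23 (MKLP1, the motor of the centralspindlin complex; chromosome 9, 61824559 to 61854087, minus strand) had 48.2 CPM in control (46.6 to 49.9) and 10.8 CPM with RO-3306 (10.2 to 11.5), a log2 ratio of -2.06. The lowest and the median cell were at 0 in both groups, and the highest at 457 CPM in control and 258 CPM with RO-3306. RO-3306 cell B9 held 74.9% of that group's counts, and without the cell with most counts in each group the log2 ratio was -3.38. It was lower with RO-3306 in sets A (17.8 and 7.86 CPM), B (97.0 and 35.4 CPM) and D (32 and 1.45 CPM). In set C it was higher with RO-3306, at low levels (0.249 and 1.05 CPM) and with 1 cell with a count in each group. At equal depth it was detected in 9 of 25 control cells (36.0%, 18% to 57.5%) and in 7 of 34 RO-3306 cells (20.6%, 8.70% to 37.9%).

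Kif20b (MPP1; chromosome 19, 34899735 to 34953150, plus strand) had 55.6 CPM in control (53.9 to 57.5) and 13.5 CPM with RO-3306 (12.8 to 14.3), a log2 ratio of -1.96. With the lowest and the median cell at 0 in both groups, the highest was at 214 CPM in control and at 390 CPM with RO-3306, so the highest cell was RO-3306 A2. It was lower with RO-3306 in sets A (67.8 and 38.6 CPM) and B (77.1 and 0.265 CPM), higher in C (0.499 and 18.7 CPM) and had no count in set D. Equal weight per cell gave a log2 ratio of -0.59.

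Kif20a (MKLP2, which carries the chromosomal passenger complex to the midzone; chromosome 18, 34757677 to 34766330, plus strand) was the exception. It had 17.4 CPM in control (16.4 to 18.42) and 22.6 CPM with RO-3306 (21.6 to 23.5), a log2 ratio of 0.36. Cells ran from 0 through 0 to 93.7 CPM in control and from 0 through 0 to 255 CPM with RO-3306. It was found in 4 of 25 control cells (16%, 4.54% to 36.1%) and in 17 of 34 RO-3306 cells (50%, 32.4% to 67.6%) at equal depth, the largest gain in share among the 10 genes (34 percentage points). Among the cells with a count the median level was lower with RO-3306, 11 against 67.3 CPM. By set it was higher with RO-3306 in A (8.50 and 21.2 CPM) and C (0 and 38.4 CPM) and lower in B (27.6 and 3.97 CPM) and D (30.3 and 20.7 CPM), and without set C the pooled log2 ratio was -0.40. Brd8 and Cdc23 overlap 59.7% of its span, where the same default applies in both groups.

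Over the 10 genes the pooled log2 ratio was below 0 for 9 and above 0 for Kif20a, with Kif18a above 0 as well under TMM or DESeq2 scaling. Of all 9374 genes 59.0% were below 0, with 5526 lower and 3848 higher (4767 and 4607 with TMM factors). The median was -1.15, or -1.36 over the 9 members of at least 5 CPM. No gene had the same sign in all 4 sets. Members lower and higher with RO-3306 numbered 5 and 5 in set A, 10 and 0 in set B, 1 and 8 in set C and 6 and 3 in set D. A gene with no count in both groups counts as neither. The median log2 ratio of all 9374 genes also differed by set: -0.08 in A, -0.26 in B, 0.41 in C and 0.24 in D. For the 10 members the medians were 0.31, -1.98, 3.08 and -0.72. Under the rule of a log2 ratio of at least 1 in size with the same sign in all 4 sets, 0 of 10 kinesins were called lower and 0 of 10 higher, against 6.43% of 9374 genes called lower and 7.23% called higher (603 and 678 genes; 452 and 872 with TMM factors). Without the set rule, 5 of 10 (Kif11, Kif23, Kif20b, Kif2c and Kif15) had a pooled log2 ratio of -1 or less, against 24.2% of all genes. Kif4, at under 5 CPM, is not among those 9374 genes.

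**Figure D3:**
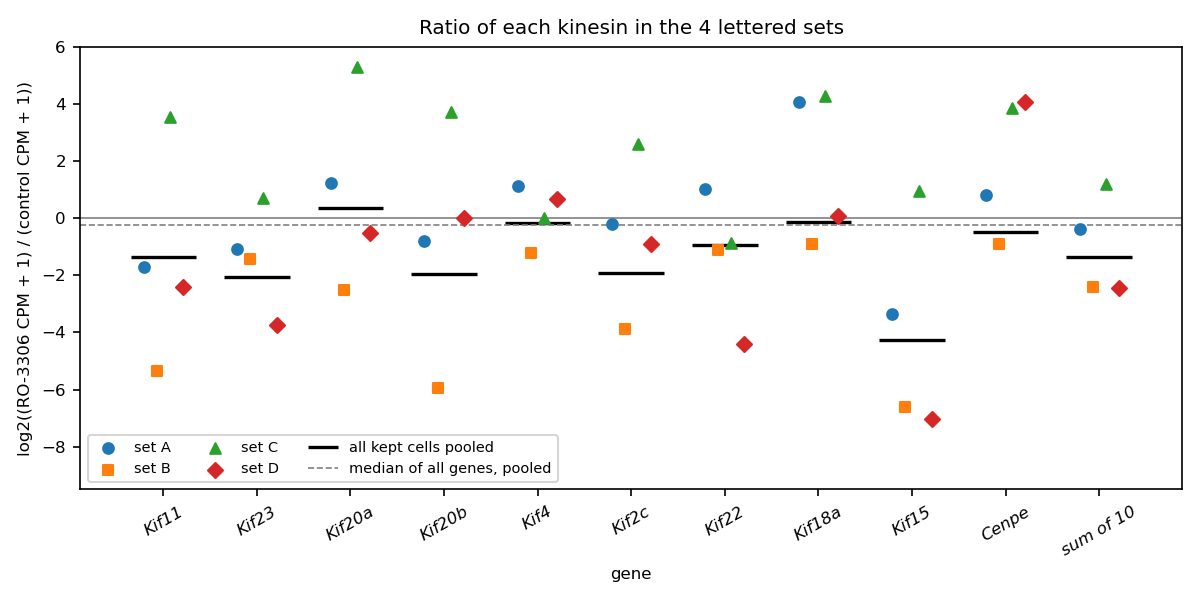
Log2 ratio of RO-3306 over control (1 CPM added to each side) for each kinesin and for their sum, per lettered set (symbols) and over all kept cells (black bars). The dashed line is the median of all genes over all kept cells, -0.22, and their medians by set are not drawn. Set C lies above 0 for 8 of 10 genes and set B below 0 for 10 of 10; values where a set had no count rest on the added 1 CPM.

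The share of cells with a count and the level in those cells were compared separately. At equal depth the share was higher with RO-3306 for 5 of 10 kinesins (Kif20a, Cenpe, Kif18a, Kif2c and Kif22) and for 6741 of 9374 genes. A higher share together with a lower pooled level was seen for 4 of 10 kinesins and for 35.2% of all genes, which is close; Kif18a is one of the 4 and is above 0 under TMM or DESeq2 scaling. Among the cells with a count, the median level at equal depth was lower with RO-3306 for 9 of 10 kinesins, against 66.4% of 9241 genes. The exception was Kif18a, where 3 control cells had a median of 1.56 CPM, the worth of 1 read, and 8 RO-3306 cells one of 71.2 CPM. The number of genes with a count per cell also differed between the groups at this depth (above); its part in the shares was not tested.

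**Figure D4:**
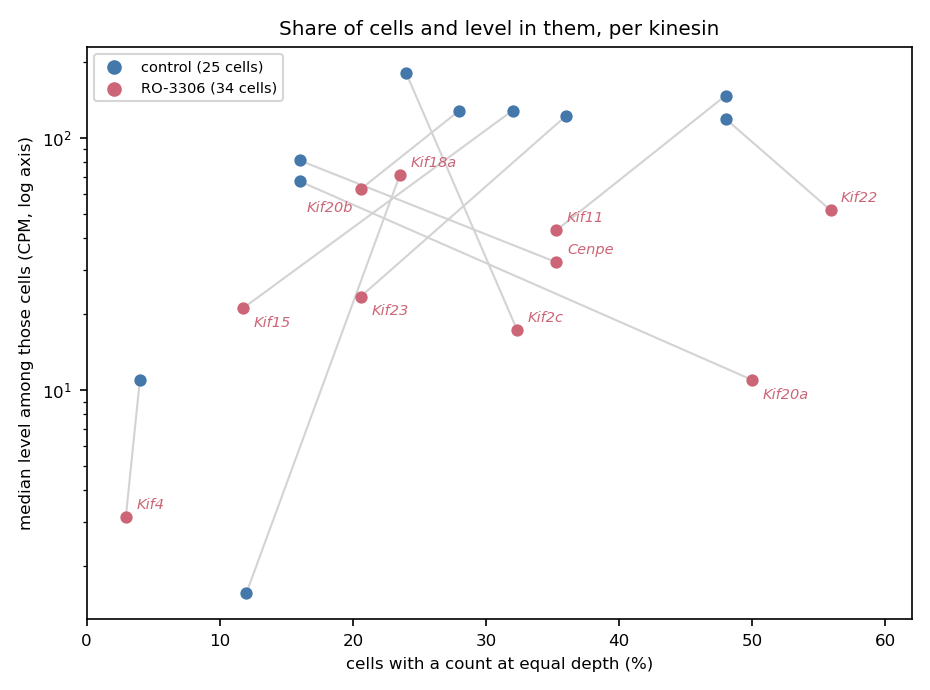
Share of cells with a count (x axis, percent) against the median level among those cells (y axis, CPM, log axis) for each kinesin at 639000 reads per cell, with a grey line from control (blue, 25 cells) to RO-3306 (red, 34 cells). The red points lie lower for 9 of 10 genes, with Kif20a moving from 16% to 50% of cells.

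Longer mRNAs had lower ratios in these libraries, and most mitotic kinesins have long mRNAs. Over 9115 genes with a known mRNA length the Spearman correlation of the log2 ratio with length was -0.36, a description across genes that share the same cells, and the median log2 ratio went from 0.26 in the shortest decile to -0.88 in the longest. The kinesins ran from 2115 nt (Kif22) to 7910 nt (Cenpe), and among the 10 the correlation was -0.07. Set against the median of genes in the same length decile, Kif15 stood at -3.66, Kif23 at -1.73, Kif2c at -1.71, Kif20b at -1.14, Kif22 at -0.76 and Kif11 at -0.75. Kif18a (0.19), Cenpe (0.38), Kif4 (0.46) and Kif20a (0.84) stood above it. The Kif4 value rests on 0.515 and 0.366 CPM, below the added 1 CPM. Its log2 ratio was -0.15, and -0.40 with 0.1 CPM added, while the decile medians use genes of at least 5 CPM. The median of the 10 was -0.75 on this scale, against -1.15 without it.

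**Figure D5:**
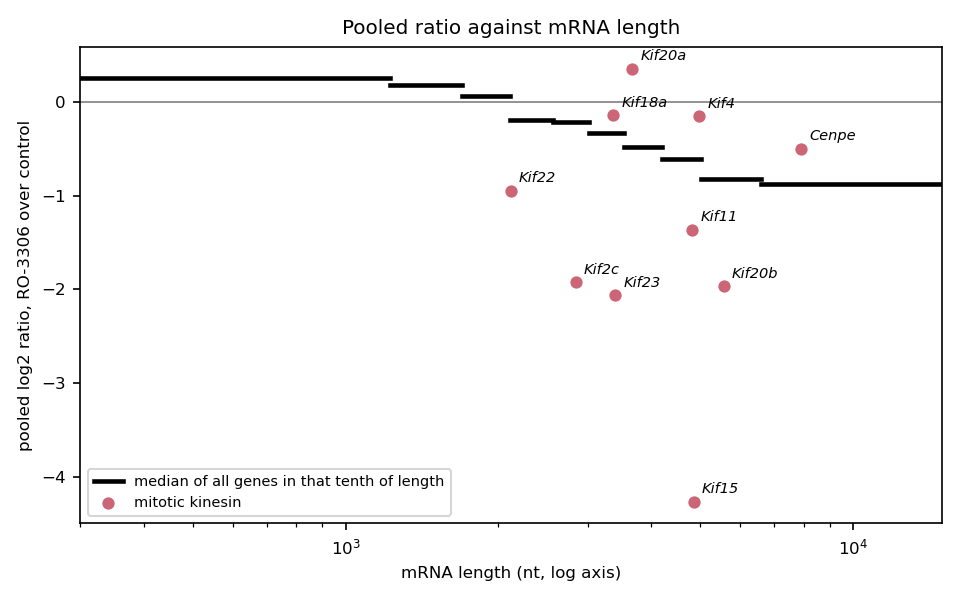
Pooled log2 ratio of each mitotic kinesin (red) against mRNA length (nt, log axis), with black bars for the median of all genes in each length decile. The bars go from 0.26 to -0.88, and 6 of the 10 kinesins lie below the bar of their decile.

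Levels of different genes were compared per kb of mRNA. In control the order was Kif22 (37.1 CPM per kb), Kif11 (24), Kif2c (16.6), Kif15 (14.8), Kif23 (14.2), Kif20b (10.0), Kif18a (6.24), Kif20a (4.73), Cenpe (4.21) and Kif4 (0.103). With RO-3306 it was Kif22 (19 CPM per kb), Kif11 (9.20), Kif20a (6.14), Kif18a (5.65), Kif2c (4.11), Kif23 (3.18), Cenpe (2.95), Kif20b (2.43), Kif15 (0.572) and Kif4 (0.0735). Kif22 and Kif11 led and Kif4 came last in both groups, Kif15 went from place 4 to place 9, and Kif20a from place 8 to place 3. The places of Kif4 and Kif20a are not like the others, since other genes overlap 66% and 59.7% of their spans. Counts also cover introns, while the divisor is the length of the mRNA. With 1 sample a treatment and levels that differ this much between cells, no neighbours in either order can be said to differ.

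Within a treatment the kinesins went together only loosely from cell to cell. Over 45 pairs of members the median Spearman correlation across thinned cells was 0.29 in control (25 cells, 40 pairs positive) and 0.16 with RO-3306 (34 cells, 33 pairs positive). The closest pair in control was Kif20a with Kif2c (0.60), and with RO-3306 Kif20a with Kif18a (0.43). These values rest on few cells with both genes, and all pairs share the same libraries. Of known partners, Tpx2, which recruits Kif11 and Kif15 to the spindle, followed Kif11 at 0.70 in control and 0.22 with RO-3306, and Kif15 at 0.38 and 0.22. Racgap1, the other subunit of centralspindlin, followed Kif23 at 0.50 and 0.06; Bub1b, a checkpoint kinase bound by Cenpe, followed Cenpe at 0.34 and 0.11; and Aurkb, cargo of Kif20a, followed Kif20a at 0.09 and 0.28. The summed kinesins followed the spindle pole and assembly list at 0.66 in control and 0.41 with RO-3306. Values were 0.69 and 0.29 for central spindle and cytokinesis genes, and 0.66 and 0.58 for kinetochore and checkpoint genes. They were 0.32 and -0.01 for other kinesins of dividing cells, and 0.04 and 0.41 for MuvB, FOXM1 and NF-Y genes. In control the summed kinesins also followed the number of genes with a count in the thinned cell (0.45; 0.06 with RO-3306) and the transport kinesins (0.49 and 0.08), whose part in these values was not tested, nor were the differences between the groups.

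Genes like the summed kinesins over cells were sought among 2973 genes. These had at least 50 CPM and a count in at least 50% of the kept cells of each group. Most like the kinesins were Nusap1, a microtubule-binding spindle protein (mean of the 2 within-group correlations 0.55), Faf2 (0.54), and the tubulins Tubb5 (0.54), Tuba1c (0.53) and Tubb4b (0.51). The median gene had 0.04. Their pooled log2 ratios were 0.27 for Nusap1, -1.22 for Faf2, -0.36 for Tubb5, 0.02 for Tuba1c and 0.57 for Tubb4b, against -1.37 for the kinesins.

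Other kinesins of dividing cells were mixed. Of 5, 3 reached 5 CPM: Kif18b was higher in all 4 sets (24.8 and 41.5 CPM, log2 ratio 0.72), Kif2a was called lower, though not with DESeq2 scaling (67.5 and 28.3 CPM, -1.22) and Kif14 was lower in the pool (7.20 and 3.40 CPM, -0.90). Kifc1, at a mean under 5 CPM, had 8.05 and 0.600 CPM, and Kif2b had no count. Of 28 transport and other kinesins, 15 reached 5 CPM, 10 lower and 5 higher (9 and 6 under TMM or DESeq2 scaling), with a median log2 ratio of -0.38. Among all genes of at least 5 CPM, 59.0% were lower. Kif3c was called higher (2.92 and 23 CPM, 2.61). Kif7, a Hedgehog-pathway kinesin, had 13.6 CPM in 5 control cells and no count with RO-3306, where a count of 0 allows at most 0.0323 CPM, so it was at least 421-fold lower in these libraries.

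Partner and regulator lists had medians closer to that of all genes than the kinesins had. Their counts of lower genes stand beside 59.0% lower among all genes of at least 5 CPM. Of 14 spindle pole and assembly genes 10 were lower and 4 higher (8 and 6 under either scaling; median log2 ratio -0.32), from Nek9 (15.1 and 2.96 CPM, -2.02) to Aurka (147 and 238 CPM, 0.69), with Tpx2 at 202 and 81.9 CPM (-1.29). Nek7, a kinase upstream of Kif11, was called lower (-1.94). By set, Tpx2 was higher in A and C, Nek9 higher in C and D, and Aurka lower in B. Ect2, Aurkb and Bub1, given next, also differed in direction between sets. Of 11 central spindle and cytokinesis genes 9 were lower and 2 higher (8 and 3; median -0.65), from Ect2, the RhoA activator of the midzone (74.1 and 13.4 CPM, -2.38), to Birc5 (624 and 720 CPM, 0.21); Racgap1 was lower in all 4 sets (417 and 248 CPM, -0.75), Aurkb stood at 164 and 178 CPM (0.12), and Cit was called lower (25 and 5.51 CPM). Of 12 kinetochore and checkpoint genes 9 were lower and 3 higher (7 and 5; median -0.44), from Bub1b (70.2 and 23.1 CPM, -1.56, called lower, though not with TMM or DESeq2 scaling, and at -0.01 in set A) to Bub1 (42.3 and 61.1 CPM, 0.52).

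Of 11 MuvB, FOXM1 and NF-Y genes of at least 5 CPM, 6 were lower and 5 higher (median log2 ratio -0.43), against 59.0% lower among all genes. Foxm1, the activator of G2 genes, had 7.21 CPM in 9 control cells and 13.1 CPM in 20 RO-3306 cells (log2 ratio 0.78), with sets A and D higher and sets B and C lower. Mybl2 had 10.7 and 4.33 CPM (-1.13), Lin9 71.5 and 19.3 CPM (-1.84), and Lin52 was called higher (19 and 41.3 CPM, 1.08). Mybl2 and Lin9 were lower in sets A and B and higher in sets C and D, Lin9 by only 0.08 in D.

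The 19 control and 11 RO-3306 libraries that were left out held 341166 and 1162600 counts. Kinesin counts there came almost entirely from 1 library in each treatment: control A4 had 374 counts of Kif23, or 2.57% of a library with 331 genes, and RO-3306 D3 had 90 counts of Kif2c. Keeping every library moved the pooled log2 ratio to -1.39.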

How the data were processed

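The authors deposited 1 table per cell of estimated counts (fractional read counts) per gene from SMART-seq v4 single-read libraries. Per the file headers these were made with featureCounts 2.0.3 on whole gene spans of the RefSeq GRCm39 annotation, introns included, with multi-mapping reads split into fractions and no strand setting; STAR and FastQC are named in the submitters' processing notes without versions. Counts were summed over kept cells, scaled to CPM and compared as log2 ratios with a pseudocount of 1 CPM, without rounding. Cells were thinned to 639000 reads (percentile 10 of kept totals) for shares of cells. mRNA length is the longest coding transcript of that symbol in GENCODE M21. Poisson and Clopper-Pearson limits are at 95% and cover counting error only. Tools were Python 3.11.15, pandas 2.3.3, scipy 1.17.1, edgeR 4.0.16 (TMM) and DESeq2 1.42.0 (size factors). The pipeline was tested on simulated data, without lettered sets, for pooled log2 ratios, thinning depth and Poisson limits only. Calls, length deciles, correlations and the promoter search were not tested in this way. The members, lists and rules were chosen with earlier results of these data known. Named were all members, their partners, the highest and lowest gene of each list and the 5 genes most like the members; other genes in counts of 5 or fewer were named after their values were seen.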

Additional observations from a re-analysis of the deposited data

How the results depend on the processing

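The pooled log2 ratio of the 10 kinesins stayed below 0 in every alternative run, from -1.80 to -0.63. It was -1.16 with TMM factors, -1.13 with DESeq2 size factors, -0.74 as a mean of per-cell CPM, -1.02 after thinning, -1.33 with a pseudocount of 10 CPM, -1.75, -0.63, -1.80 and -1.15 without set A, B, C or D, -1.14 without the cell with most kinesin counts in each group (B4 and C9), -0.96 without control cell B4 and -0.70 without control cells B4 and D8. The median over members was, in that order, -0.95, -0.92, -0.57, -0.84, -1.01, then -1.52, -0.36, -1.46 and -0.84 by set, -1.23 without each gene's cell with most counts in each group, -0.98 without B4 and -0.60 without B4 and D8, and -0.75 against genes of like length, an alternative that has no value for the sum.
The difference in the median number of kinesins detected was 0.5 and became 1 with all reads, 1 at a depth of 213000 reads, and -1, 2, 0.5 and 1 without set A, B, C or D; at 5 counts or at 10 CPM it was 0.5 with medians of 1 and 1.5. Calls among all genes numbered 1281, or 513 at 50 CPM. Of 160 recomputed single-gene ratios 143 kept their sign, though runs that change only the pseudocount cannot change a sign. The 17 that did not were of Kif18a (7), Cenpe (6), Kif4 (3) and Kif20a (1). Only 58 of the 160 stayed within the counting limits of the main value. Alternatives naming B4, D8, 10 CPM or TMM calls were chosen after seeing the data.
No paired analysis was possible because each treatment is 1 sample of unpaired cells, and no test was run. Differences between cultures cannot be told apart from treatment, and fewer cells in G2 or mitosis cannot be told apart from less mRNA in each.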
